A study of Mus musculus with 10 samples.

Results

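The genes described here encode the proteins of the basement membrane, 36 of the 22046 genes in the deposited table. The set was selected on measured values, because collagen IV and laminin genes were higher in the cerebellum of Bmal1 knockout mice in these same libraries. The levels of those chains are therefore given as a description. Where a count of genes past a threshold includes them, that is a consequence of the choice, and nothing is read from it. The 36 genes were grouped by the role of their product: 6 collagen IV chains, 10 laminin chains, 6 linkers and heparan sulfate proteoglycans, 6 calcium-binding matrix proteins, 4 proteins of the Fraser complex with nephronectin, and 4 other associated proteins.

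The knockout animals were Bmal1-/- and the controls were their Bmal1+/+ littermates, all C57BL/6 and born to Bmal1+/- parents, so the loss was constitutive and in the whole body. The protocols also name floxed Bmal1 mice crossed with L7-Cre, but no library here carries that genotype. Bmal1, listed under its symbol Arntl, encodes a transcription factor of the circadian clock. Housing had a light phase of 12 h a day. Sex, age and hour of tissue collection are not given in the sources used here. From each frozen cerebellum, 1 part of the lysate was sequenced as total RNA and another as ribosome footprints of 28 to 34 nt, the fragments that ribosomes protect from RNase I. Values were at hand for knockout animals 1 and 3 and wild-type animals 2 and 3, giving 4 total RNA and 4 footprint libraries, while total RNA of knockout 2 and wild type 1 was not analysed here. With 2 animals a group, p-values measure only the spread between these samples.

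A basement membrane is a thin sheet of secreted protein on which epithelia and endothelia rest and which wraps muscle fibres and the surface of the brain. Laminin, a trimer of an alpha, a beta and a gamma chain, forms the first network at the cell surface, collagen IV forms a second, covalently linked one, and nidogens and heparan sulfate proteoglycans tie them together. In the cerebellum such sheets surround the blood vessels, underlie the choroid plexus epithelium and separate the end feet of Bergmann glia from the meninges.

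Read totals worked back from the steps of the deposited values (M, megareads) were 38.9 and 43.2 M for knockout total RNA, 25.6 and 27.8 M for wild-type total RNA, 41.0 and 30.1 M for knockout footprints, and 38.1 and 27.7 M for wild-type footprints. In total RNA, depth and genotype cannot be told apart, since both knockout libraries were the deeper ones. Arntl itself had 267 and 272 RPKM in knockout total RNA and 179 in each wild-type library, while its footprints were at 124 and 107 RPKM in the knockout and at 258 and 295 RPKM in wild type. Its footprints were thus lower in both knockouts, as the labels imply, by -1.25 ± 0.14 on the log2 scale (SE), just short of the threshold (limma adjusted p = 0.0589). Footprints per total RNA, a value that also takes in the rise in total RNA, differed by -1.84 ± 0.15 (limma adjusted p = 0.0367). Its total RNA was higher in both (limma adjusted p = 0.0158), which checks no label, because the deposited value sums the whole gene and the deleted exons are not given in the sources used here. All 13 granule neuron and all 14 Purkinje cell genes listed had reads in every library. The same holds for 13880 of the 22046 genes, so this is only a weak check of the labelled tissue.

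Collagen IV genes lie in pairs, head to head. On GRCm38, Col4a1 occupies chr8:11198423-11312826 on the minus strand and Col4a2 occupies chr8:11312805-11449287 on the plus strand, so that their annotated first exons overlap by 22 bases. Strand use in the counting is not stated, and reads from those 22 bases cannot be assigned to either gene, a stretch that is small beside the 7464 exonic bases of Col4a1 and the 6619 of Col4a2. The starts of Col4a4 and Col4a3 on chromosome 1 were 72 bases apart and those of Col4a6 and Col4a5 on the X chromosome were 1309 bases apart. Nid2 shares 437 exonic bases with Rtraf on the opposite strand, and the same limit holds there.

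The start regions of the 4 genes with the highest rise in total RNA on the log2(RPKM + 1) scale are shown, on GRCm38.p6 as in RefSeq. That scale understates genes with low values, and by the ratio of mean RPKM Npnt (2.74-fold) stood above Lama5 (2.32-fold). These 4 were taken because Col4a1 and Col4a2 share theirs while the other pair lies elsewhere in the genome. Each runs from 250 bases before to 50 bases after the start, 300 bases in all, on the strand of the gene. Capitals mark GC boxes (GGGCGG, or CCGCCC on the other strand) and CCAAT boxes (CCAAT, or ATTGG on the other strand).
Col4a1, chr8:11312777-11313076, minus strand: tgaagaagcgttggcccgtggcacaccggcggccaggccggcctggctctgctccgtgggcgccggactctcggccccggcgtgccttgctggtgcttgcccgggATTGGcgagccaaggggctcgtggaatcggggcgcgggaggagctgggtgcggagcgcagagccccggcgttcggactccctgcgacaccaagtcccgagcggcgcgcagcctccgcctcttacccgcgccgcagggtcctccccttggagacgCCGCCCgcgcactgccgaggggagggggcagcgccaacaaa
Col4a2, chr8:11312555-11312854, plus strand: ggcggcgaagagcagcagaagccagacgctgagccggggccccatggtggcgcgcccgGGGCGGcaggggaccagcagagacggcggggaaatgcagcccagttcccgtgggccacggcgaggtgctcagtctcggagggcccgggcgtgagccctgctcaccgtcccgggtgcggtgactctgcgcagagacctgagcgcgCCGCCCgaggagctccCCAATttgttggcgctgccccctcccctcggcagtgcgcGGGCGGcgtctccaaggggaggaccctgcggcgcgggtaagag
Lama5, chr2:180225810-180226109, minus strand: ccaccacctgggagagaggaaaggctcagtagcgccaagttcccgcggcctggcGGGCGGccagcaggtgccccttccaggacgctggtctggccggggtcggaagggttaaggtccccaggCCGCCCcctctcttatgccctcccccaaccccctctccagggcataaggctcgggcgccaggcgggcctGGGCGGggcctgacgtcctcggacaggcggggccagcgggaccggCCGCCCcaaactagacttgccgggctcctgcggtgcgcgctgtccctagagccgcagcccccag
Frem2, chr3:53657306-53657605, minus strand: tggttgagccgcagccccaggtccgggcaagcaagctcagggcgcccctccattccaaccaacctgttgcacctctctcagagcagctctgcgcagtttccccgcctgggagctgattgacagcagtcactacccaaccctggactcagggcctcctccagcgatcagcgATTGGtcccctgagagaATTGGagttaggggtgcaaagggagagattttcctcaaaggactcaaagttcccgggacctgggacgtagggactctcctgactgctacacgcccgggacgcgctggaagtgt

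The windows of Col4a1 and Col4a2 had 78 bases in common, read in opposite directions, and the GC content was 74% in the first and 73.7% in the second. Col4a1 held 1 GC box and 1 CCAAT box, Col4a2 held 3 and 1, Lama5 held 4 GC boxes and no CCAAT box, and Frem2 held 2 CCAAT boxes and no GC box. RefSeq start regions were matched for 26 of the 36 genes, 35 regions in all. A GC box was found in 21 of them (60%), against 35.7% of all 32851 mouse regions of the same length. CCAAT was found in 13 (37.1%), against 37.4% of all. The E-box CACGTG, the element that BMAL1 and CLOCK bind, was found in 2 (5.71%), both belonging to Fbln1, against 7.15% of all. Neither the D-box TTATGTAA nor the TATA box TATAAA was found in any of the 35, against 0.938% and 13.6% of all. Both strands were searched, none of these motifs contains another, and a match or its absence describes only the letters in these windows.

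Col4a1 and Col4a2 encode the chains of the collagen IV trimer that is present in nearly all basement membranes. RPKM is given as deposited, with reads scaled to library size and to a length. That length, worked back from recovered reads, was within 1.5 times the coding length for 9 of the 36 genes. RPKM therefore does not rank genes against each other. In total RNA, Col4a1 was at 40.9 and 41.3 RPKM in knockout animals 1 and 3, against 10.1 and 13.4 RPKM in wild-type animals 2 and 3. Col4a2 was at 88.4 and 81.0 RPKM in the knockouts, against 20.1 and 22.5 RPKM in wild type. Both knockout libraries lay above both wild-type libraries for each gene, by 3.49-fold for Col4a1 (41.1 ± 0.28 against 11.8 ± 2.36 RPKM, mean ± SD, n = 2) and 3.98-fold for Col4a2 (84.7 ± 5.22 against 21.3 ± 1.68 RPKM, mean ± SD, n = 2). On the log2(RPKM + 1) scale, the lower knockout value exceeded the higher wild-type value by 1.54 for Col4a1 and 1.81 for Col4a2, against gaps between the wild-type animals of 0.38 and 0.15. In a bulk tissue, a change in the number of cells of a type and a change in RNA per cell cannot be told apart.

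The other 4 chains were at lower levels per coding kilobase and differed less or rested on few reads. Col4a5, a chain of collagen IV networks in kidney, lung and smooth muscle, was at 9.63 and 9.17 RPKM in knockout and 7.66 and 8.59 RPKM in wild-type total RNA. Its 1.16-fold difference in means left the groups apart, by less than the gap between the wild-type animals. Col4a3, Col4a4 and Col4a6 stayed under a mean of 1 RPKM and were left out of the limma fit. Col4a4 groups overlapped, Col4a6 was slightly lower in both knockouts (0.26 and 0.32 against 0.33 and 0.50 RPKM), and Col4a3 was 2.03-fold higher on 23 to 90 reads a library.

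Reads divided by coding length compare the chains with each other. By that measure Col4a1 made up 45.1% and 46.7% of collagen IV in knockout total RNA and 34.4% and 39.1% in wild type. Col4a2 made up 41.6% and 39.2% in the knockouts and 29.2% and 28.0% in wild type. Col4a5 moved the other way as a share, from 22.4% and 21.5% in wild type to 9.10% and 8.89% in the knockouts, on RNA levels that did not fall. The ratio of Col4a1 to Col4a2 reads per coding kilobase, 1.08 and 1.19 in knockout and 1.18 and 1.40 in wild-type total RNA, overlapped between genotypes.

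Footprints of collagen IV were higher too, with more spread. Col4a1 footprints were at 26.3 and 33.3 RPKM in the knockouts and at 4.60 and 10.7 RPKM in wild type. Col4a2 footprints were at 49.8 and 75.7 RPKM in the knockouts and at 17.1 and 21.3 RPKM in wild type. The genotypes did not overlap for either gene, at 3.90-fold and 3.27-fold, yet the gap between wild-type animals was 1.06 on the log2 scale for Col4a1 footprints, close to the 1.22 that separated the genotypes. Col4a5 footprints (8.81 and 8.27 against 7.11 and 8.67 RPKM) overlapped.

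**Figure D1:**
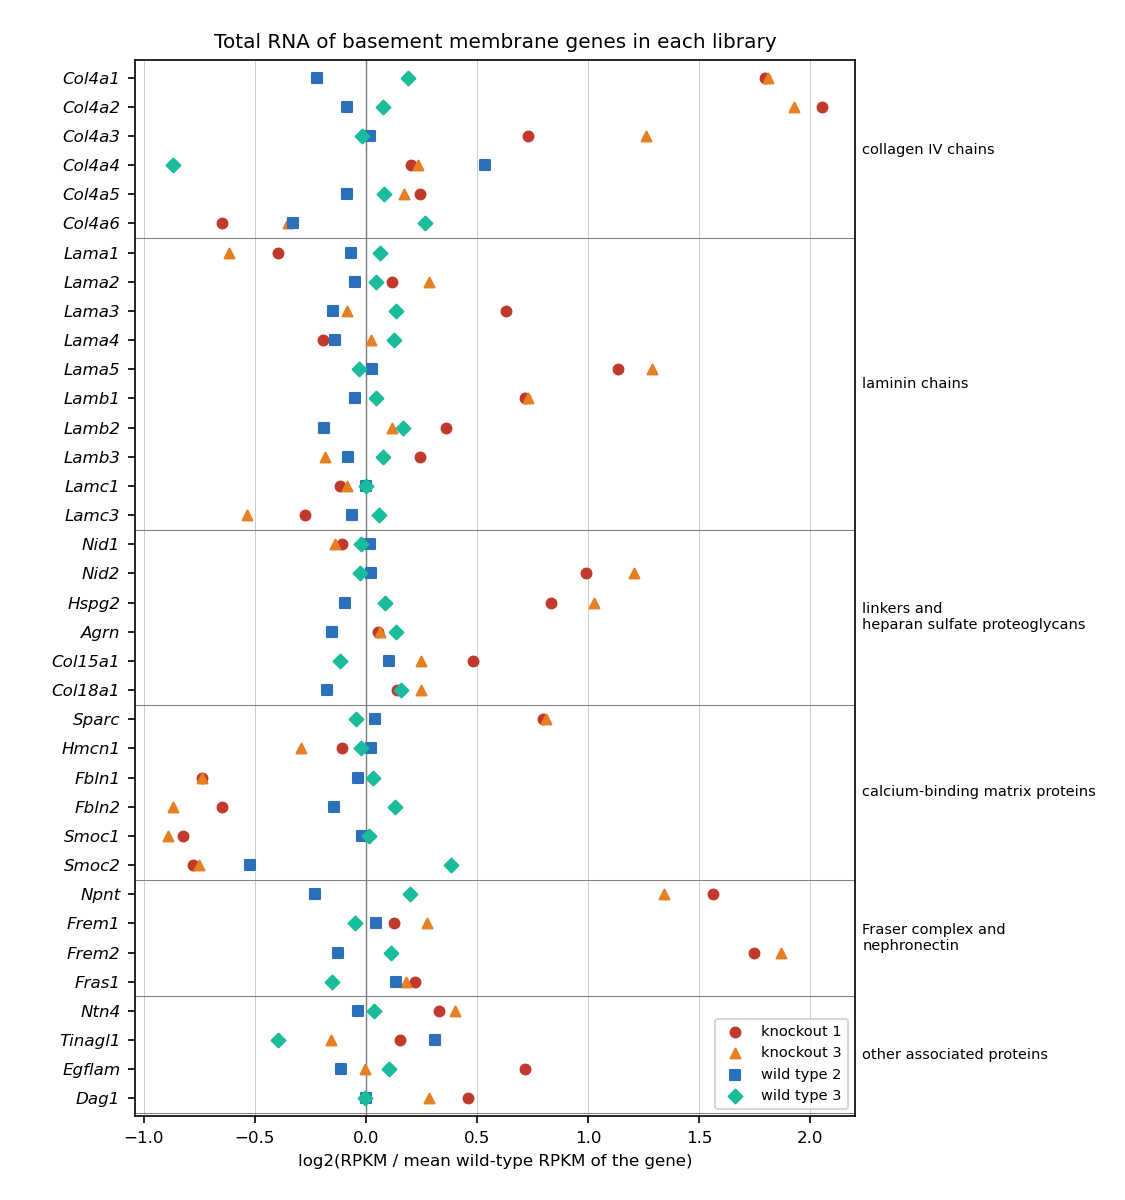
Total RNA of each of the 36 genes (rows, grouped by role) in each library; the x axis is log2 of the RPKM over the gene's mean in wild type, circles and triangles are knockout animals 1 and 3, and squares and diamonds are wild-type animals 2 and 3. Col4a1, Col4a2, Lama5, Frem2, Npnt, Nid2, Sparc and Lamb1 stand to the right in both knockouts, as do Hspg2 and the sparsely read Col4a3. Fbln1, Fbln2, Smoc1 and Smoc2 stand to the left in both knockouts, and most other genes scatter nearer 0.

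Of the laminin alpha chains, Lama5 had the largest difference. This chain forms the laminins of mature endothelium and of many epithelia, and the gene lies at chr2:180176373-180225859. Its total RNA was at 191.5 and 213 RPKM in the knockouts and at 89.0 and 85.5 RPKM in wild type, a 2.32-fold difference (202.2 ± 15.1 against 87.3 ± 2.47 RPKM, mean ± SD, n = 2). The genotypes were separated by 1.10 on the log2 scale, against 0.06 between the wild-type animals. Lama5 RNA was scarce in reads, 492 and 608 in the knockouts and 154 and 158 in wild type. Per coding kilobase it made up 12.1% and 12.5% of laminin alpha RNA in the knockouts against 6.24% and 5.49% in wild type.

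The remaining alpha chains differed by smaller amounts. Lama2, the chain of laminin in muscle and at the brain surface, was the most abundant, at 56.7% and 59.1% of laminin alpha RNA in the knockouts and 55.9% and 54.7% in wild type. Its total RNA was at 45.9 and 51.5 RPKM in the knockouts and at 40.9 and 43.7 RPKM in wild type, apart by less than the wild-type gap. Lama1, a chain of embryonic and meningeal basement membranes, went the other way, at 1.61 and 1.38 RPKM in the knockouts and 2.02 and 2.22 RPKM in wild type, and the groups did not overlap. Lama4, an endothelial chain, was at 4.92 and 5.71 against 5.11 and 6.13 RPKM. Lama3, a chain of epidermal laminin, was at 2.38 and 1.45 against 1.39 and 1.69 RPKM. The groups overlapped for these last alpha chains.

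Among beta chains, Lamb1, the common one, was at 12.3 and 12.5 RPKM in knockout and 7.26 and 7.75 RPKM in wild-type total RNA, 1.65-fold higher and with no overlap. Lamb2, the beta chain of synaptic and vascular laminins, was at 151.7 and 128 RPKM against 103 and 132.5 RPKM. Lamb3 was at 5.45 and 4.05 RPKM against 4.34 and 4.85 RPKM. Only Lamb1 of these separated the genotypes. The ratio of Lamb1 to Lamb2 per coding kilobase was 1.35 and 1.62 in the knockouts and 1.17 and 0.97 in wild type.

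Lamc1, the gamma chain of most laminins, had nearly the same level in all libraries: 21.2 and 21.7 RPKM in the knockouts and 23.0 in each wild-type animal. Both knockouts were below both wild types, by 0.08 on the log2 scale. It made up 84.7% to 88.7% of laminin gamma RNA. Lamc3, a gamma chain of retina and brain surface, was at 71.8 and 59.9 RPKM in the knockouts and at 83.0 and 90.5 RPKM in wild type, 0.76 of the wild-type mean, with no overlap.

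Footprints of the laminin chains gave wider spreads. Lama5 footprints were at 83.7 and 203.9 RPKM in the knockouts and at 45.1 and 55.0 RPKM in wild type, and knockout animal 3 lay far above knockout animal 1. Lamb1 footprints were at 18.2 and 17.2 RPKM in the knockouts and at 12.0 and 12.8 RPKM in wild type. Lamb3 footprints were at 4.27 and 2.92 RPKM in the knockouts and at 1.80 and 2.28 RPKM in wild type. These 3 chains were higher in both knockouts by more than the gap between wild-type animals. Footprints of Lama1, Lama4 and Lamc1 were lower in both knockouts by less than that gap, and those of Lama2, Lamb2 and Lamc3 overlapped. Lama3 fell under the filter.

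The molecules that join the networks differed among themselves. From here on, a gene that passed the limma test at an adjusted p under 0.05 over all genes is called higher or lower, and its change is on the log2(RPKM + 1) scale, which understates the change of genes with low values. Nidogens bind both laminin and collagen IV, and Nid2 (chr14:19751265-19811787) was at 6.33 and 7.37 RPKM in knockout and at 3.24 and 3.13 RPKM in wild-type total RNA. Nid1 was at 11.0 and 10.8 RPKM in knockout and at 12.0 and 11.7 RPKM in wild type. Nid2 rose by 0.90 ± 0.12 (log2, SE, limma adjusted p = 0.0202), whereas Nid1 groups were apart by 0.08 in the opposite direction. Nid2 rests on few reads, 177 and 229 against 61 and 63.

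Nidogen footprints are on a different order. Nid1 footprints were at 17.5 and 20.0 RPKM in the knockouts and at 25.6 and 29.8 RPKM in wild type. Nid2 footprints were at 10.4 and 12.2 RPKM in the knockouts and at 9.16 and 6.68 RPKM in wild type. Genotypes did not overlap for either, with Nid1 lower in the knockouts by more than the wild-type gap and Nid2 higher by less than it; neither was called.

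Perlecan, agrin and the collagens XV and XVIII carry heparan sulfate or similar chains. Hspg2, which encodes perlecan, was at 1.93 and 2.21 RPKM in the knockouts and at 1.02 and 1.15 RPKM in wild type, 1.91-fold apart, and did not pass the test (limma adjusted p = 0.0903). It passed with limma-voom on recovered reads (0.91 on the log2 scale, adjusted p = 0.000211), a fit in which 1 RPKM is not added. With 0.1 RPKM added in place of 1, its change was 0.87 and it was still not called (limma adjusted p = 0.0977). Agrn, which encodes agrin, was at 51.4 and 51.6 against 44.5 and 54.4 RPKM, and overlapped. Perlecan footprints were at 2.12 and 3.25 RPKM in the knockouts and at 1.61 and 1.92 RPKM in wild type, apart by less than the wild-type gap, and agrin footprints were at 38.0 and 41.2 against 35.9 and 38.0 RPKM.

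Col15a1 and Col18a1, whose products end in anti-angiogenic fragments, were not called. Col15a1 total RNA was higher in both knockouts (17.5 and 14.9 against 13.5 and 11.6 RPKM) while its footprints were lower in both (27.7 and 30.5 against 34.3 and 35.2 RPKM). Col18a1 overlapped in both kinds of library.

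In total RNA, calcium-binding matrix proteins parted into Sparc and the rest. Sparc encodes a collagen-binding glycoprotein that glia and endothelium secrete, lies at chr11:55394500-55423183, and was by far the most abundant of the 36 genes, at 706 recovered reads per coding kilobase and megaread (M) of its library in wild-type total RNA, where the next, Dag1, had 39.5. Its total RNA was at 281.9 and 284.7 RPKM in the knockouts and at 167 and 157 RPKM in wild type. Sparc rose by 0.80 ± 0.08 (log2, SE, limma adjusted p = 0.00861), with the knockouts above wild type by 0.75 and a wild-type gap of 0.09. Sparc footprints were at 564.5 and 589 RPKM in the knockouts and at 396 and 369.5 RPKM in wild type, 1.51-fold higher without overlap, and did not pass the test (limma adjusted p = 0.152). They passed with limma-voom (adjusted p = 0.00399).

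Fbln1, Fbln2, Hmcn1, Smoc1 and Smoc2, the other 5 of this group, had lower total RNA in both knockouts than in both wild types. Of all tested genes, 30.3% did so. Of the 5, 4 were lower by more than the wild-type gap (16.5% of all), and Smoc2 was apart by 0.13 against a gap of 0.59. None of the 5 was called by limma. The lowest adjusted p was that of Fbln1, which encodes fibulin-1, at 2.60 RPKM in each knockout and at 4.23 and 4.42 RPKM in wild type (limma adjusted p = 0.0587). limma-voom called Fbln1 (log2 change -0.76, adjusted p = 0.00539) and Smoc1 (-0.88, adjusted p = 0.00137) lower. Smoc1 encodes a relative of Sparc and was at 1.04 and 0.99 RPKM in the knockouts and at 1.82 and 1.86 RPKM in wild type. Fbln1 footprints were lower too, at 8.62 and 10.8 RPKM in the knockouts and at 15.3 and 18.9 RPKM in wild type (limma adjusted p = 0.266, limma-voom adjusted p = 0.0455).

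Frem2 had the lowest adjusted p in total RNA of the genes outside the collagen IV and laminin families. FREM2 is a transmembrane protein that joins FRAS1 and FREM1 in the Fraser complex below embryonic epithelia, and its gene lies at chr3:53513938-53657355. Its total RNA was at 269 and 293 RPKM in the knockouts and at 73.5 and 86.9 RPKM in wild type, from 956 and 1157 reads against 176 and 222. Both knockouts were far above both wild types: the rise was 1.80 ± 0.11 (log2, SE, limma adjusted p = 0.00223), with 1.62 between the genotypes and 0.24 between the wild-type animals. In footprints Frem2 was at 239.9 and 325 RPKM against 68.0 and 74.0 RPKM and rose by 1.96 ± 0.18 (log2, SE, limma adjusted p = 0.0351). It was the only one of the 36 genes that limma called in both kinds of library.

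Its partners were not called. Fras1 was at 12.7 and 12.4 RPKM in the knockouts and at 12.0 and 9.81 RPKM in wild type, and Frem1 was at 2.37 and 2.62 against 2.24 and 2.09 RPKM, each 1.15-fold higher with a difference below the wild-type gap. Npnt, which encodes nephronectin, a ligand of integrin alpha 8 beta 1, was at 4.23 and 3.64 RPKM in the knockouts and at 1.22 and 1.65 RPKM in wild type. Npnt rose by 1.02 ± 0.15 (log2, SE, limma adjusted p = 0.0241). Its footprints, at 5.26 and 3.96 against 1.68 and 3.72 RPKM, did not overlap but differed by less than the wild-type animals did from each other.

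None of the other associated proteins was called. Ntn4, a netrin that binds laminin gamma chains, was at 5.62 and 5.92 RPKM in the knockouts and at 4.37 and 4.59 RPKM in wild type. Dag1, the dystroglycan receptor that holds laminin to the cell surface, was at 53.8 and 47.6 against 39.1 and 39.0 RPKM. Both were higher in both knockouts by more than the wild-type gap, and limma-voom called both (adjusted p = 0.0226 for Ntn4 and 0.0129 for Dag1). Egflam, which encodes the dystroglycan ligand pikachurin, overlapped in total RNA (15.7 and 9.57 against 8.87 and 10.3 RPKM) and was apart in footprints (33.8 and 23.5 against 13.1 and 16.2 RPKM, limma adjusted p = 0.262). Tinagl1 stayed under 1 RPKM.

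**Figure D2:**
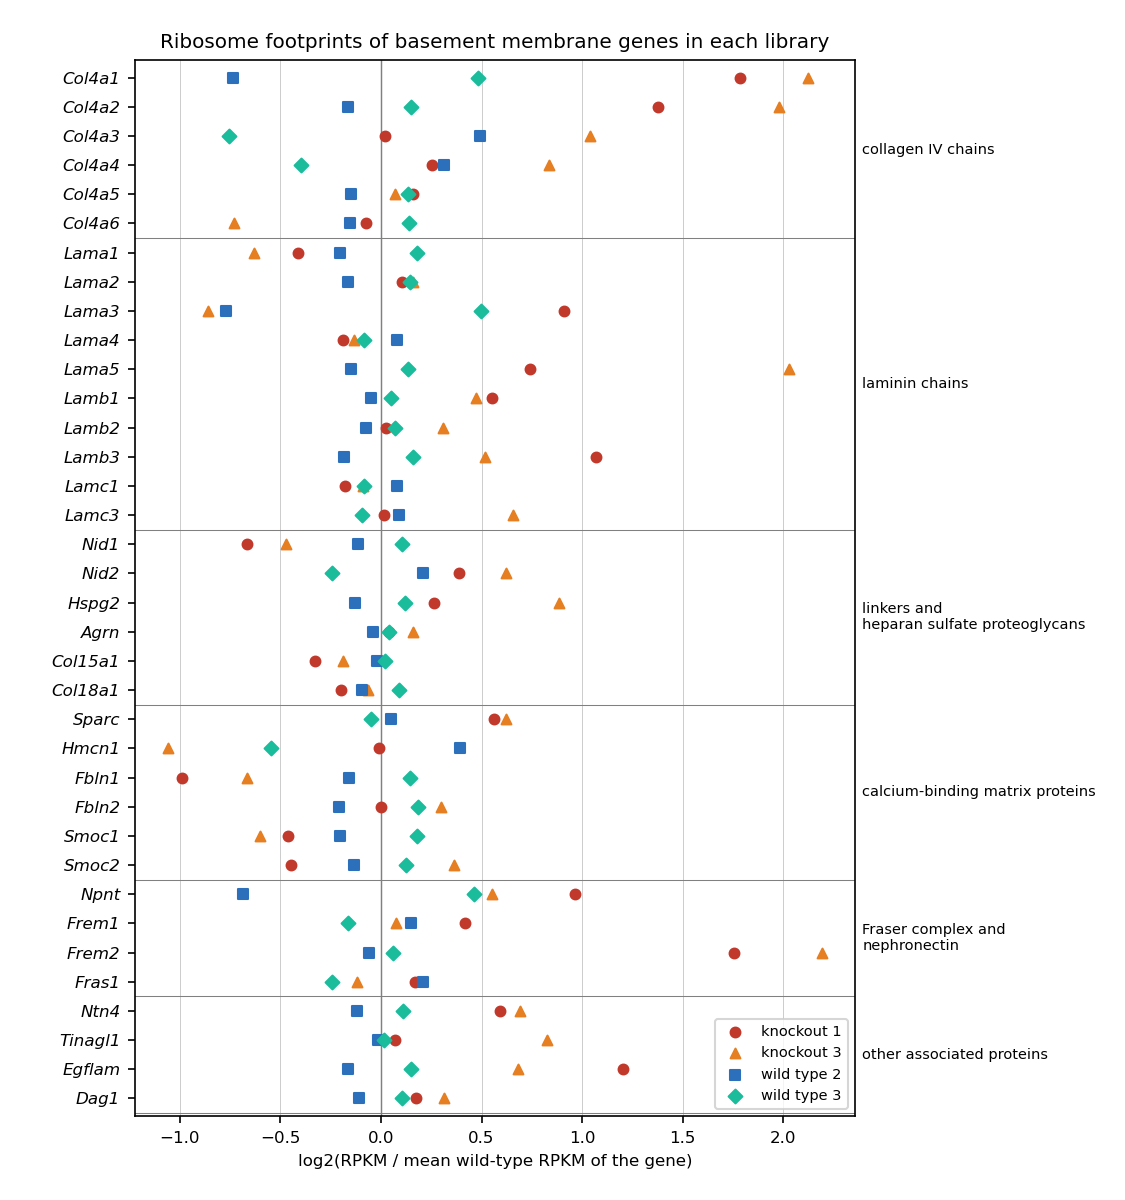
Ribosome footprints of the same 36 genes in each library, drawn as for total RNA: the x axis is log2 of the RPKM over the gene's wild-type mean, circles and triangles are knockouts 1 and 3, squares and diamonds are wild types 2 and 3. Col4a1, Col4a2, Lama5 and Frem2 again lie to the right in both knockouts, and the distance between animals of 1 genotype is wider for Col4a1 and Lama5 than in total RNA.

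Counted together, 32 of the 36 genes passed the filter of a mean of 1 RPKM in total RNA, and limma put 8 past the threshold as higher and 0 as lower. Over all 12690 genes tested, 2.48% were called higher and 1.61% lower. Col4a1, Col4a2, Lama5 and Lamb1, 4 of the 8, belong to the families whose rise chose the set, so their place there carries no evidence. Outside those families 19 genes were tested and 4 were called higher: Nid2, Sparc, Npnt and Frem2. The whole list was written with these results known, and nothing is read from its share against that of all genes. At an unadjusted p under 0.05 there were 16 of the 32, against 2810 of all 12690 genes. limma-voom on recovered reads, which tested all 36, called 11 higher and 3 lower, where 5.93% and 6.25% of all genes were called. Outside collagen IV and laminin it called 7 higher and 2 lower.

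Both knockouts were above both wild types in 16 of the 32 (24.7% of all tested genes) and below both in 9 (30.3%), and 7 overlapped. By more than the gap between the wild-type animals, 11 were above (13.3% of all) and 8 below (16.5%). The median log2 change was 0.20, against -0.02 over all genes tested, and the median gap between the wild-type animals was 0.13 for these genes and 0.14 for all. Reads on the 36 genes summed to 2138 and 2141 per M recovered reads in the knockouts and to 1428 and 1426 in wild type. Sparc alone gave 1202 and 1216 of these against 730 and 676, and the other 35 genes gave 936 and 925 against 698 and 750.0.

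In footprints 31 genes were tested. limma called Frem2 higher, where 0.129% of all genes were called higher, and 0 lower, where 0.104% were. An unadjusted p under 0.05 was found for 9 of the 31, against 1294 of all 12447 genes. limma-voom called 4 higher, against 0.912% of all genes, and 1 lower, against 0.671%. Of the 4, Col4a1 and Col4a2 are among the genes that chose the set and carry no evidence, and the others were Frem2 and Sparc, with Fbln1 lower. Both knockouts were above both wild types in 14 (17.1% of all) and below both in 7 (22.6%). By more than the wild-type gap there were 9 above (8.46% of all) and 3 below (12.2%). The median change was 0.16, against -0.03 over all genes, and the median gap between wild-type animals was 0.21 here and 0.16 over all genes. Summed footprints were 3174 and 3394 per M recovered reads in the knockouts and 2372 and 2361 in wild type, of which the 35 genes other than Sparc gave 940.4 and 1043 against 807 and 903.

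**Figure D3:**
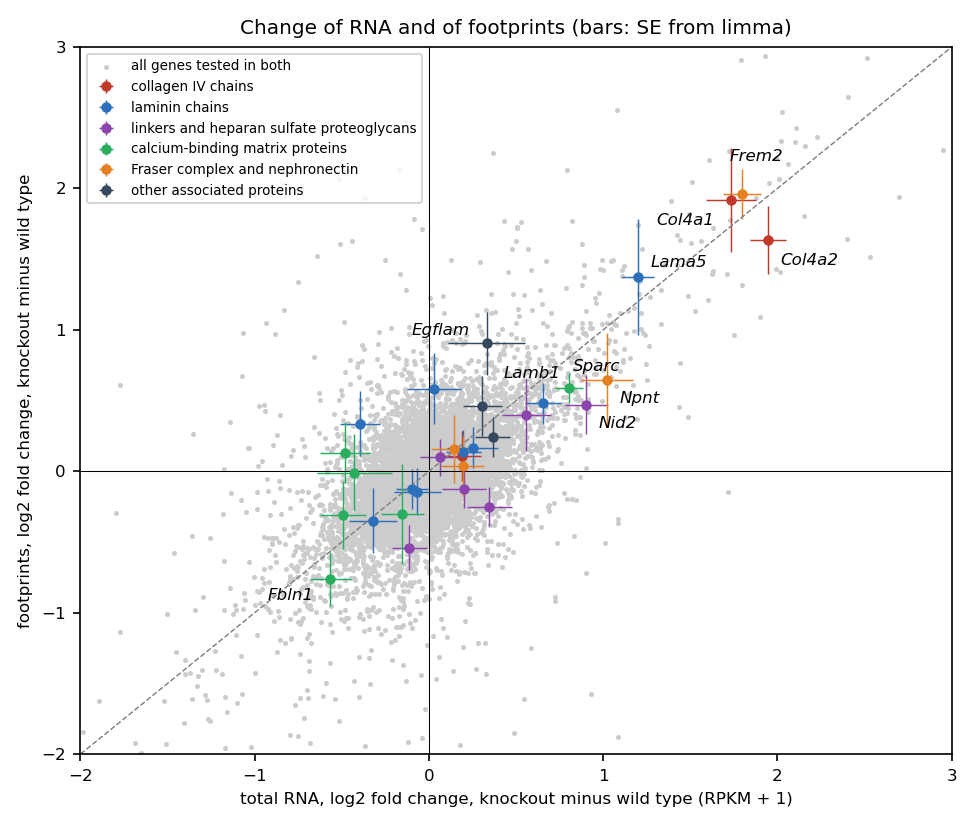
Change of total RNA (x axis) and of footprints (y axis), each as the log2 fold change of knockout over wild type on RPKM + 1, with bars of 1 SE from limma; coloured points are the 31 genes tested in both and grey points are all genes tested in both, of which 34 lie outside the axes. The dashed line marks equal change, and Frem2, Col4a1, Col4a2 and Lama5 sit near it at the upper right.

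Translational efficiency is the ratio of footprint RPKM to total RNA RPKM of the same animal, and a change in it would mean that ribosome loading moved apart from RNA. Of 31 genes tested in an interaction model over all 8 libraries, limma called 0, and the lowest adjusted p was 0.972, for Col15a1. Of all 12089 genes tested, 0.0165% were called. At an unadjusted p under 0.05 there were 4 of the 31, against 4.55% of all genes, and limma-voom called 0, against 0.0073% of all. The median difference was -0.08, against -0.02 over all genes.

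The 4 genes whose start regions are printed had overlapping ratios. Col4a1 ratios were 0.64 and 0.81 in the knockouts and 0.46 and 0.80 in wild type. Col4a2 ratios were 0.56 and 0.94 against 0.85 and 0.95, those of Lama5 were 0.44 and 0.96 against 0.51 and 0.64, and those of Frem2 were 0.89 and 1.11 against 0.93 and 0.85. The spread between animals of 1 genotype was as wide as any difference between genotypes for these 4, so smaller shifts in ribosome loading were not detectable with these libraries.

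Ratios of 15 genes did not overlap between genotypes. Both knockouts were above both wild types for 6 (14.2% of all tested genes), namely Egflam, Fbln2, Lamb3, Lamc3, Ntn4 and Smoc1. They were below for 9 (17.5% of all), namely Col15a1, Col18a1, Col4a5, Hspg2, Lamb1, Nid1, Nid2, Npnt and Sparc. Npnt ratios, for one, were 1.24 and 1.09 in the knockouts and 1.37 and 2.26 in wild type. The 4 genes with an unadjusted p under 0.05 were Col15a1, Nid1, Lamc3 and Fbln2. Col15a1 ratios were 1.58 and 2.05 in the knockouts and 2.54 and 3.04 in wild type, a difference of -0.59 ± 0.18 (log2, SE). For Nid1 they were 1.59 and 1.86 against 2.13 and 2.55 (-0.43 ± 0.18), for Lamc3 1.13 and 2.11 against 1.03 and 0.83 (0.73 ± 0.29), and for Fbln2 2.80 and 3.99 against 1.70 and 1.85 (0.61 ± 0.25). The genotypes did not overlap for any of them, and each had a limma adjusted p of 0.972 or more.

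The ratio itself varied widely among the genes. Across wild-type means, the median ratio was 1.38 for the 31 genes and 0.97 for all genes, and 17 of the 31 were above 1, against 47.9% of all genes. Fbln1 had the highest ratio, 3.95, above 98.7% of all tested genes, followed by Col15a1 (2.79, above 95.6%), Nid2 (2.48, above 93.2%), Sparc (2.36, above 92.2%) and Nid1 (2.34, above 92.0%). At the low end were Lamb3 (0.44, above 14.9%), Ntn4 (0.45, above 15.4%), Lama5 (0.58, above 23.5%) and Col4a1 (0.63, above 27.0%).

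**Figure D4:**
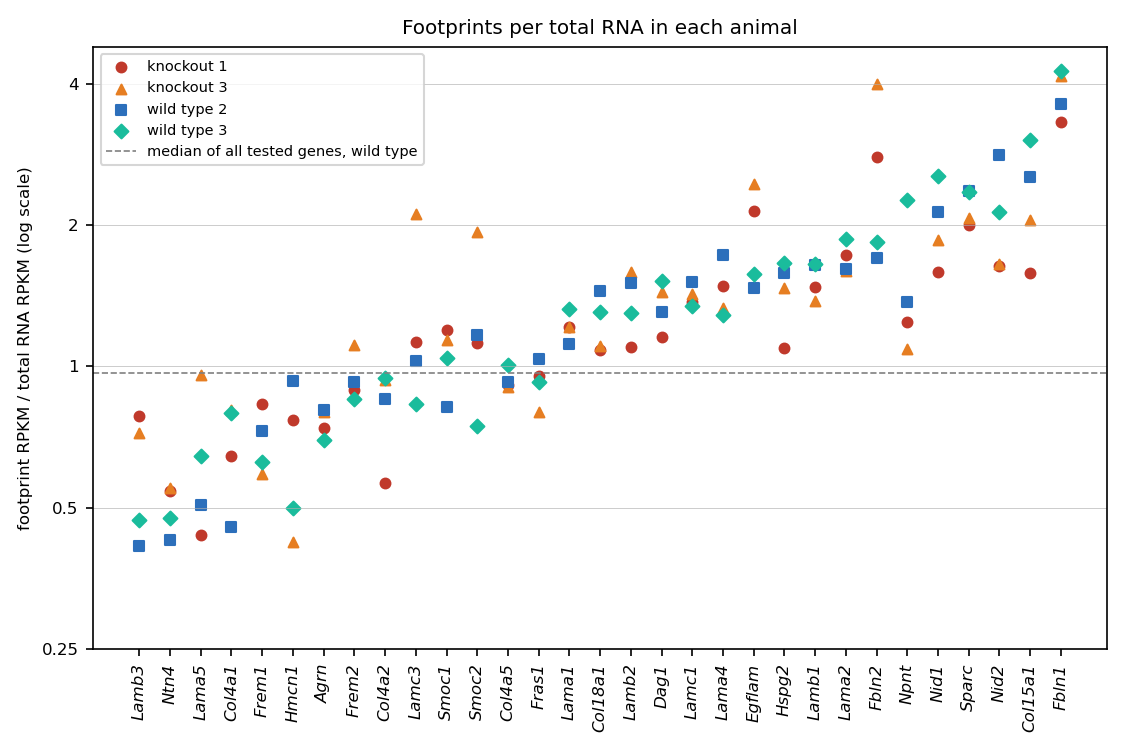
Footprint RPKM over total RNA RPKM in each animal (y axis, log scale) for the 31 genes tested, ordered by their wild-type mean; circles and triangles are knockouts 1 and 3, squares and diamonds wild types 2 and 3, and the dashed line is the median of all tested genes in wild type, 0.97. The order of the genes spans from 0.44 for Lamb3 to 3.95 for Fbln1, while the ratios of the genotypes overlap for 16 of the 31 genes.

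Receptors and processing enzymes of the pathway were mostly uncalled by limma. Of 26 genes for integrins, the dystrophin complex and the enzymes that glycosylate dystroglycan, 23 were tested in total RNA, and 1 was higher: Itga7, a laminin-binding integrin subunit (20.6 and 18.7 RPKM in the knockouts, 10.9 and 13.2 in wild type, limma adjusted p = 0.0470). The median change of these receptors was 0.04. With limma-voom, 4 of 25 were called higher and 0 lower. Of all genes, limma called 2.48% higher and limma-voom 5.93%. Of 26 genes for collagen hydroxylation, folding, crosslinking and export, 21 were tested and 0 were called by limma, with 4 at an unadjusted p under 0.05, the lowest adjusted p being that of Mia3, a collagen export receptor (0.131); limma-voom called 0 higher and 3 lower.

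Of 26 genes that remodel matrix, 21 were tested, with 2 higher and 1 lower, where 2.48% and 1.61% of all genes were. With limma-voom, 5 of 24 were called higher and 2 lower, where 5.93% and 6.25% of all genes were. Mmp14, a membrane-bound protease that cleaves collagens and activates other proteases, was at 23.2 and 23.9 RPKM in the knockouts and at 5.72 and 5.67 RPKM in wild type, a rise of 1.88 ± 0.10 (log2, SE, limma adjusted p = 0.00168). Its footprints rose by 1.93 ± 0.15 (log2, SE, limma adjusted p = 0.0304). Plat, tissue plasminogen activator, rose by 0.68 in total RNA (limma adjusted p = 0.0160) and by 1.02 in footprints (limma adjusted p = 0.0430). Timp3, a matrix-bound protease inhibitor, fell by 0.84 (limma adjusted p = 0.0114), from 215.5 and 189 RPKM in wild type to 114 and 111 RPKM in the knockouts. The median change over the 21 was 0.09.

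Genes of the interstitial matrix outside the basement membrane were called in both directions. Of 20 tested in total RNA, limma called 1 higher and 4 lower, and limma-voom called 3 higher and 4 lower. Of all genes, limma called 2.48% higher and 1.61% lower, and limma-voom called 5.93% and 6.25%. The median change was -0.15, against -0.02 over all genes, and 6 had a positive change. Col5a1, a fibril-forming collagen, rose by 1.01 (limma adjusted p = 0.0355). Postn fell by 1.18, Dcn by 0.82 and Thbs1 by 0.75 (limma adjusted p = 0.0149, 0.00916 and 0.0138), and Fn1, fibronectin, was the other one lower. None of these 4 lists had a call in translational efficiency.

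Markers of the cells that make basement membranes were set beside these values, in reads per M recovered reads. Endothelial markers, 18 of 18 with reads, summed to 345 and 300.0 in knockout and to 350 and 260 in wild-type total RNA. Mural markers, 14 of 15, summed to 208 and 187 against 251 and 221, and meningeal fibroblast markers, 16 of 16, to 311 and 307 against 268 and 304. Endothelial sums overlapped between genotypes and meningeal sums were slightly higher in both knockouts. Mural sums were lower in both knockouts, with 0 of 12 tested genes called by limma, 3 at an unadjusted p under 0.05 and 2 called lower by limma-voom. Cldn5, the tight junction protein of brain endothelium, was called (179 and 169.5 RPKM in the knockouts, 109 and 86.7 in wild type, limma adjusted p = 0.0245), and Mfsd2a, a lipid transporter of the same cells, went the other way (45.6 and 60.1 against 158 and 97.4 RPKM, limma adjusted p = 0.0507, limma-voom adjusted p = 0.000287). limma-voom called 1 endothelial marker higher and 1 lower, and Pecam1 overlapped (5.36 and 4.79 against 5.63 and 3.01 RPKM). Among meningeal markers, Igfbp2 was called higher and Dcn lower, and Lum was at 2.02 and 1.64 RPKM in the knockouts and 2.39 and 2.66 RPKM in wild type.

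The choroid plexus list separated the libraries most. Its markers, 15 of 16 with reads, summed to 2865 and 3314 in knockout total RNA, to 1526 in wild-type animal 2 and to 309 in wild-type animal 3, and the footprint sums were 8464 and 8717 against 3952 and 725. Ttr, transthyretin, was at 11753 and 13916 RPKM in the knockouts and at 5390 and 208 RPKM in wild type, and Kl at 578 and 600 against 277 and 37.2 RPKM. The sum was higher in both knockouts and differed widely between the wild-type animals, and its part in the results was not tested. Of 13 markers tested in total RNA, 13 had a positive change, the median was 1.61, and limma called Prlr and Sostdc1 higher (adjusted p = 0.0397 and 0.0207). With limma-voom, 12 of 15 were called higher in total RNA and 9 of 15 in footprints, against 5.93% and 0.912% of all genes. Wild-type animal 3, with the smaller choroid plexus sum, had more Col4a1, Col4a2, Frem2, Npnt and Lamb1 RNA than wild-type animal 2 and slightly less Lama5, Nid2 and Sparc. Wild-type animal 2 was also below both knockouts in the choroid plexus sum.

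Astrocyte and Bergmann glia markers, 14 of 14, summed to 9512 and 9647 against 9103 and 8870. Ependymal markers, 10 of 10, summed to 49.0 and 58.9 against 84.3 and 88.0. Brainstem markers, of which 5 of 15 had recovered reads, summed to 132 and 134 against 229 and 171. That sum leaves out 10 genes at 0 in a library, among them Hoxa5 and Hoxb4, which were high in wild-type animal 2 alone. Hoxa5 total RNA was at 1.39 and 1.57 RPKM in the knockouts, 40.6 in wild-type animal 2 and 0.73 in wild-type animal 3. Hoxb4 was at 0.32 and 0.28 against 27.6 and 0.44 RPKM. Of the brainstem genes, Slc17a6 was called lower and Tph2 higher (limma adjusted p = 0.0277 and 0.0402). Within the glial list, Fabp7, a fatty acid binding protein of Bergmann glia, was at 244 and 249 RPKM in the knockouts and 17.9 and 16.6 RPKM in wild type (limma adjusted p = 5.6e-05), S100b was called lower (limma adjusted p = 0.0174), and 12 of 14 were not called. Blood markers, 6 of 6, summed to 74.7 and 66.8 against 85.3 and 65.9. Granule neuron sums were 9114 and 9043 against 7309 and 7925, and Purkinje sums were 10240 and 11230 against 11375 and 12530. Of the granule neuron genes, limma called Grin2c, Fat2 and Tiam1 higher (adjusted p = 0.0491, 0.0470 and 0.0476), and it called 0 of the Purkinje genes. With limma-voom, 7 of 13 granule neuron genes were called higher and 0 lower, and of 14 Purkinje genes 1 was called higher and 2 lower. Glial and granule neuron sums were higher in both knockouts, Purkinje, ependymal and brainstem sums lower, and blood sums overlapped. In the ependymal list, Dnah11 was called lower (78.1 and 101 against 220 and 239 RPKM, limma adjusted p = 0.00847). Pifo was called higher (1.95 and 1.85 against 0.47 and 0.59 RPKM, limma adjusted p = 0.0261). The median change of its 5 tested genes was 0.07, and its footprint sums overlapped (40.7 and 48.2 against 41.6 and 39.8). The part of these lists in the results was not tested.

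**Figure D5:**
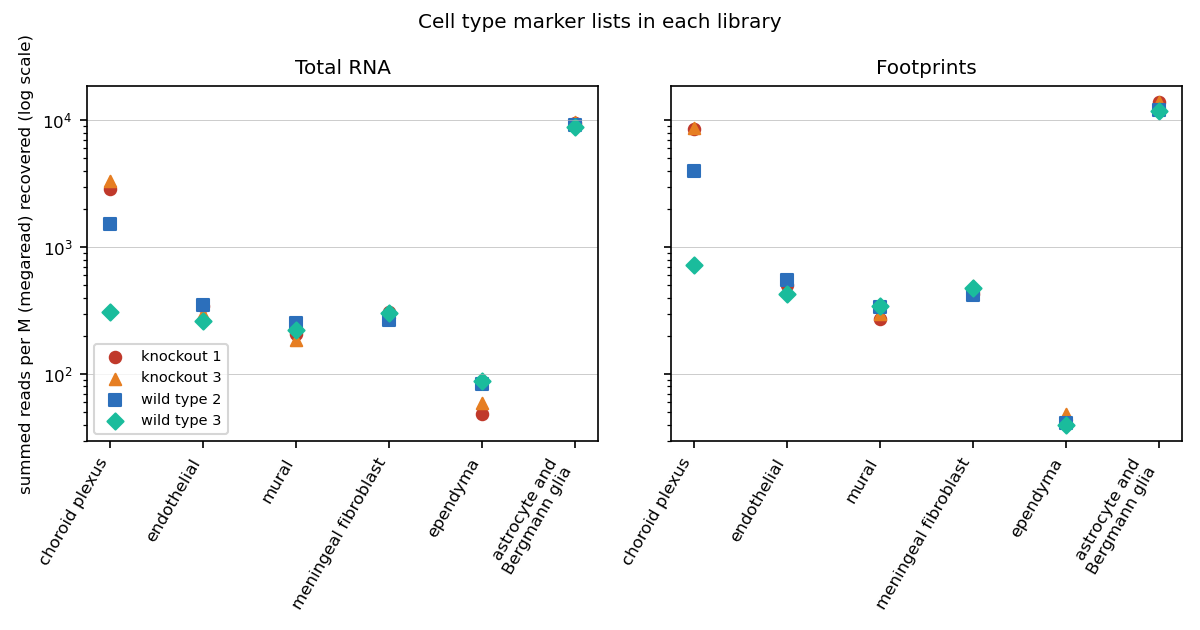
Summed reads per M recovered reads (y axis, log scale) of 6 cell type marker lists in each library, total RNA at the left and footprints at the right; circles and triangles are knockouts 1 and 3, squares and diamonds wild types 2 and 3. Choroid plexus sums run from 309 to 3314 in total RNA, whereas endothelial sums stay between 260 and 350.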

How the data were processed

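Ribosome footprints and total RNA were sequenced from cerebellum. The deposited table gives RPKM per gene and library, and a second gives the ratio of footprint to total RNA RPKM per animal, per the file headers. Both also give a mean read count over the 8 libraries, a value of its own kind made by the authors. Bowtie, STAR, Cufflinks and mm10 are named in the submitters' processing notes, without versions. Recomputed from the deposited RPKM, the ratio was within 2% for 144 of 144 values of these genes.

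Here log2(RPKM + 1) of genes with a mean of at least 1 RPKM was tested with limma 3.58.1 in R 4.3.3, with a variance trend and Benjamini-Hochberg adjustment over all genes at 0.05; translational efficiency was the interaction of genotype and kind. The design had been written for 10 libraries, and 8 had a column. Replicates are separate animals per the series' design. Whole reads were recovered from the RPKM steps and the mean read count, taken as a geometric mean: 99.9% of 4392 low values fell within 0.1 of a whole number, and 13880 genes were recovered. The implied gene length was within 1.5 times the coding length for 9 of the 36 genes, so RPKM was compared only within a gene, and reads per coding kilobase between genes. For the same reason, the filter at 1 RPKM does not stand for the same read level in every gene. limma-voom on these reads was an alternative. The main limma fits and the limma-voom fits were run on simulated data, and the other alternatives were not. Positions came from GENCODE M21.

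Values in every library were given for collagen IV and laminin genes past the filter, core linkers, Sparc and called genes. Of each pathway list the genes that limma called were named, or else the one with the lowest adjusted p. Of each cell type list the genes that limma called were named. Members and lists were chosen with earlier results of these data known.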

Additional observations from a re-analysis of the deposited data

How the results depend on the processing

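The 8 calls in total RNA became 2 with no filter on low values, 14 with limma-voom on recovered reads, and 5 with all libraries in one fit. They ranged from 4 to 8 with an animal left out: leaving out knockout 1 gave 4, leaving out knockout 3 gave 5, and the wild-type animals 2 and 3 gave 6 and 8. In those 4 fits the change of Frem2 was 1.68 to 1.92 on the log2 scale, against 1.80 with all animals. The fits share most of their libraries, and the list was written with these results known. Col4a1, Col4a2 and Lama5 were moreover chosen on this contrast. Nothing about stability is read from these fits for any of these genes. A mean read count of at least 100 in place of the RPKM filter gave 12, of which 3 were lower (Fbln1, Fbln2 and Smoc1). The single call in footprints became 0 with no filter, 2 with the read count filter, 0 with no variance trend, 5 with limma-voom, 4 with all libraries in one fit, and 0 to 0 with an animal left out, where the change of Frem2 was 1.74 to 2.18 on the log2 scale, against 1.96 with all animals. The cause of these shifts was not tested. Leaving out an animal leaves 1 library in a group, which is assumed to vary like the other group. Translational efficiency had 0 calls under every alternative.

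With the animal as a replicate block, which pairs the footprint and total RNA libraries of each animal, translational efficiency had 0 calls, and the block changed no call. No paired analysis was possible for genotypes within total RNA or footprints because only animal number 3 occurs in both groups, and the sources used here do not say which animals shared a litter. Over the genes with a call or an unadjusted p under 0.05, 175 values for total RNA, 94 for footprints and 48 for translational efficiency kept direction and side of the threshold; 11 and 8 gained a call, 18 and 6 lost it, and 0 reversed. Reads per gene and library ran from 11 to 91525, and the lowest counts limit Col4a3, Col4a4, Lama3, Smoc2 and Fbln2.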
